A study of Homo sapiens with 12 samples.

Results

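Unedited Hs578T cells were compared with unedited MDA-MB-231 cells by RNA-seq, to give the difference in expression between these human breast cancer lines before any change to CD44. The libraries were chosen by their labels alone: 3 CD44 WT libraries of Hs578T and 3 CD44 WT libraries of MDA-MB-231, 6 of the 12 libraries in the study. Both are established triple-negative breast cancer (TNBC) lines, which means that they lack the estrogen and progesterone receptors and amplified HER2. The tumor cells behind Hs578T were taken from the breast itself, and those behind MDA-MB-231 from a metastasis. The other 6 libraries were made from CD44 KO cells of the same lines, which received guide RNAs against exons 1 and 5 of CD44, and no CD44 KO library entered any test of the comparison between the CD44 WT lines.

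The unedited cells were not untouched. Both lines had been transduced with a lentivirus carrying doxycycline-inducible Cas9 and selected with puromycin, and the CD44 WT plates had been given transfection reagent without guide RNA. Live CD29+ CD44+ cells were sorted, so that the cells were a sorted population and not a clone, and RNA was taken after 24 h in 1% serum. Every cell of a group came from 1 line and so from 1 tumor. The p-values below therefore measure only the spread between libraries of these lines, and no source used here says that the libraries of a line came from separate cultures.

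CD44 is a transmembrane receptor for hyaluronan, a polysaccharide of the extracellular matrix that is made at the plasma membrane by hyaluronan synthases. TNBC lines of mesenchymal character have lost much of the epithelial program, including E-cadherin and several claudins, and express vimentin, fibronectin and interstitial collagens to varying degrees. Growth factor signaling through EGFR and the MAPK cascade, and mechanical signaling through YAP1 and the TEAD factors, are among the pathways that set how such cells grow and spread.

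Library totals were alike: the Hs578T libraries summed to between 11328102 and 13954052 counts, and those of MDA-MB-231 to between 11717139 and 12695074. Levels are given below as CPM, the counts of a gene relative to the library total, on the scale of the trimmed mean of M values (TMM). Single libraries are listed as replicates 1, 2 and 3 for Hs578T, and as replicate 1, replicate 3 and an unnumbered library for MDA-MB-231. The column name of the unnumbered library stood in the sample descriptions of both replicate 2 and replicate 3, so that it showed the group but not the replicate. Log2 expression correlated at 0.985 to 0.993 (Pearson) between libraries of a line and at 0.735 to 0.750 between lines. MDA-MB-231 replicate 1 and Hs578T replicate 3 stood somewhat apart from the others of their line: the chi-square per gene against the other libraries was 21.5 and 32.8 for the former, where the remaining MDA-MB-231 pair gave 6.18, and 15.3 and 9.95 for the latter, where the remaining Hs578T pair gave 4.71. The biological coefficient of variation was 0.108 within Hs578T and 0.159 within MDA-MB-231.

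A majority of expressed genes differed between the lines. Of 15229 genes tested with edgeR's quasi-likelihood test, 8459 had a Benjamini-Hochberg adjusted p of 0.01 or less (55.5%), of which 4460 were higher in Hs578T (29.3% of tested genes) and 3999 were higher in MDA-MB-231 (26.3%). Genes at this threshold are called below. A difference of at least 2-fold was found for 5407 of them (35.5% of tested genes), 3054 toward Hs578T (20.1%) and 2353 toward MDA-MB-231 (15.5%). A difference of at least 32-fold was found for 933 genes toward Hs578T and 563 toward MDA-MB-231. The log2 differences given below are Hs578T minus MDA-MB-231, and their median over all tested genes was 0.04. In 11012 genes (72.3% of those tested) the libraries of the lines did not overlap, so that non-overlap by itself singled out little. Because 55.5% of all genes were called, the counts for each gene list below are to be read against those shares, and the bar plot of gene lists places them side by side.

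**Figure D1:**
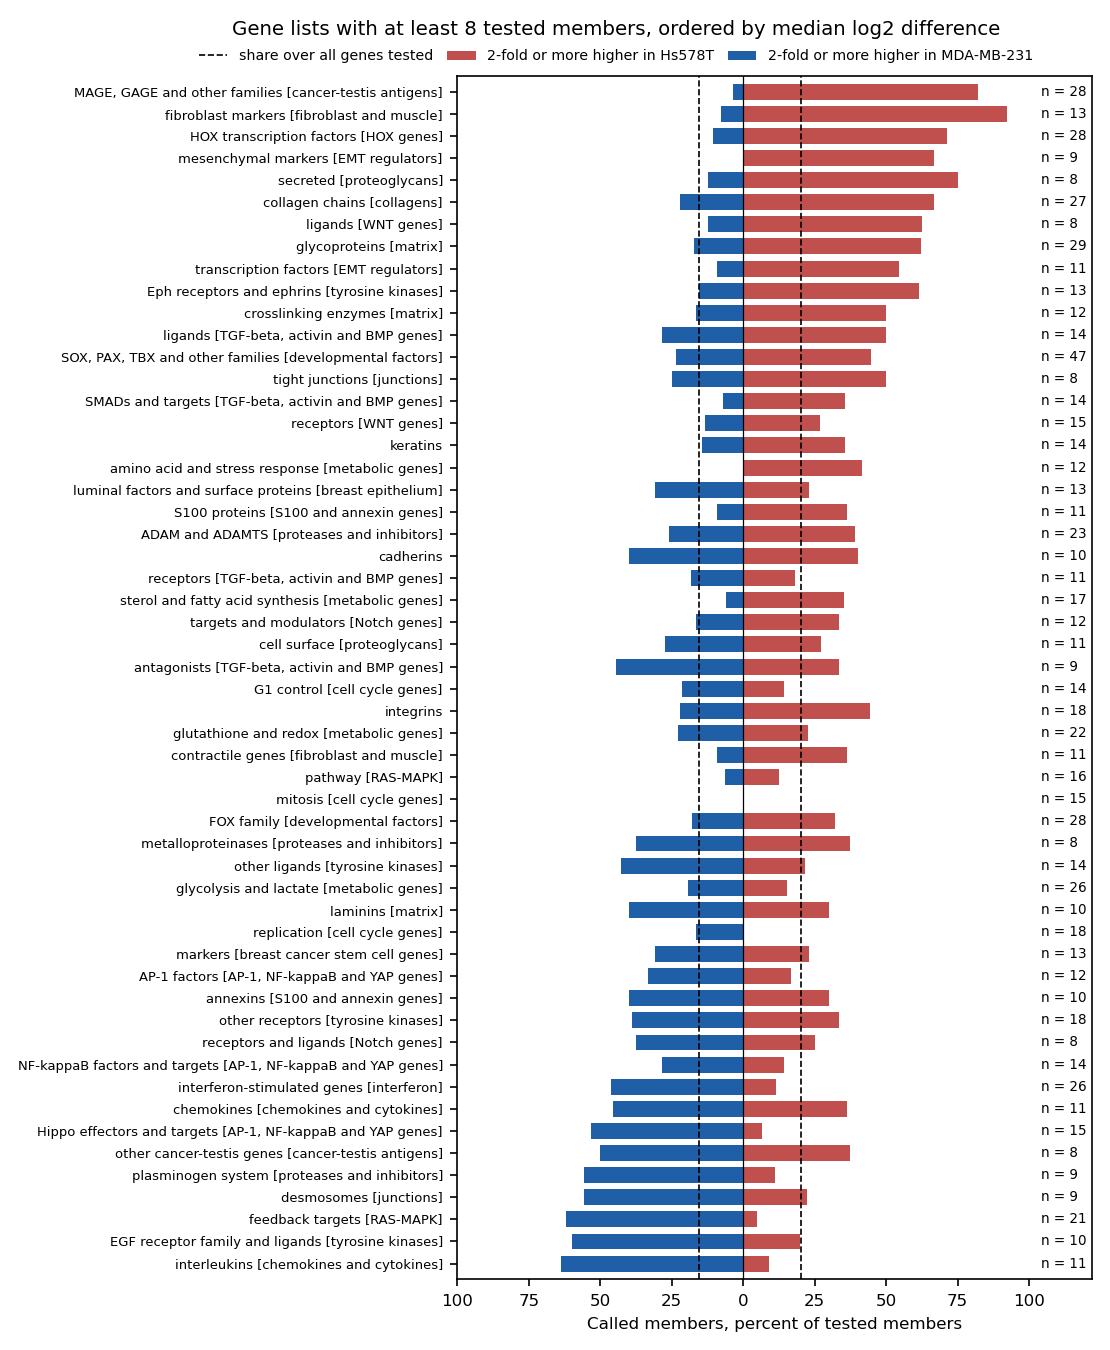
Percent of the tested members of each gene list that were called and at least 2-fold higher in Hs578T (red, to the right) or in MDA-MB-231 (blue, to the left), for lists with at least 8 tested members, ordered by the median log2 difference. Dashed lines mark the share over all genes tested, near 20.1% for Hs578T and 15.5% for MDA-MB-231. Cancer-testis families, fibroblast markers and HOX factors stand at the top, and interleukins, EGF ligands and MAPK feedback targets at the bottom.

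CD44 itself was expressed at a high level in both lines. Its level was 527, 496 and 505 CPM in Hs578T and 358, 362 and 358 CPM in MDA-MB-231. The libraries of the lines did not overlap, and the log2 difference was 0.50 (SE 0.0855, adjusted p = 0.000398), a difference under 2-fold. In the CD44 KO cells, which were sorted as CD44-, the mean was 27.4 CPM in Hs578T and 34.2 CPM in MDA-MB-231, well below the CD44 WT cells of both lines as the labels have it. Of 22 tested genes for hyaluronan receptors, synthesis, breakdown, binding proteins and CD44 linkers, 8 were higher in Hs578T, 5 were higher in MDA-MB-231 and 9 were not called, with a median log2 difference of 0.13.

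The other hyaluronan receptors divided between the lines. LAYN, which encodes the membrane receptor layilin, had 54.1, 51.5 and 47.5 CPM in MDA-MB-231 and no count in any Hs578T library. It was at least 652-fold higher in MDA-MB-231, where the bound takes 3 counts over the Hs578T libraries as the floor. HMMR, whose product binds hyaluronan and the mitotic spindle, went the other way, with 131, 136 and 153 CPM in Hs578T and 18.6, 23.9 and 24.6 CPM in MDA-MB-231 (log2 difference 2.64, SE 0.135, adjusted p = 6.54e-08). Both genes were fully separated by line.

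Among the hyaluronan synthases, HAS2 was the only called gene, with more in MDA-MB-231. Its level was low in Hs578T, at 2.64, 2.89 and 2.73 CPM, and was 6.6, 15 and 17.6 CPM in MDA-MB-231, where replicate 1 was the lowest library (log2 difference -2.25, SE 0.337, adjusted p = 0.000169). HAS3 stood at 0.671 ± 0.226 CPM (SD, n = 3) in Hs578T and 1.59 ± 0.728 CPM in MDA-MB-231 and was not called (adjusted p = 0.0287). The secreted hyaluronidase gene HYAL1 was higher in Hs578T, at 20.4 ± 3.08 CPM against 0.587 ± 0.196 CPM (log2 difference 5.08, adjusted p = 6.43e-08), and CEMIP, whose product breaks down hyaluronan at the cell surface, was higher there by 1.77 on the log2 scale (adjusted p = 8.32e-05). HYAL2 levels overlapped between the lines (41.4 ± 3.3 and 39.0 ± 6.63 CPM).

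Proteins that bind or crosslink hyaluronan in the matrix showed opposite patterns. VCAN, which encodes the large proteoglycan versican, had 196, 247 and 266 CPM in Hs578T and 0.0846, 0.162 and 0.266 CPM in MDA-MB-231 (log2 difference 10.36, SE 0.256, adjusted p = 9.85e-10). PTX3, a secreted pentraxin that takes part in crosslinking hyaluronan, had 2.29, 1.9 and 1.88 CPM in Hs578T and 218, 274 and 211 CPM in MDA-MB-231 (log2 difference -6.84, SE 0.174, adjusted p = 1.04e-09). The link protein gene HAPLN3 was also higher in MDA-MB-231 (log2 difference -2.13, adjusted p = 6.9e-05).

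The extracellular matrix held several of the largest differences among genes of high level. Of 27 tested collagen chains, 18 were at least 2-fold higher in Hs578T, 6 were at least 2-fold higher in MDA-MB-231 and 3 were not called (median log2 difference 2.85). COL6A3, a chain of the microfibrillar collagen VI, had 3083, 2641 and 2309 CPM in Hs578T and 0.0846, 0.405 and 0.266 CPM in MDA-MB-231 (log2 difference 13.31, SE 0.26, adjusted p = 3.19e-10). Its partner chain COL6A1 differed much less, at 513 ± 32.0 CPM in Hs578T and 114 ± 16.9 CPM in MDA-MB-231 (log2 difference 2.17), and COL6A2, the remaining chain of the classical trimer, by 1.98, so that both remained well expressed in MDA-MB-231. Per length, COL6A3 stood at 136 FPKM, which divides the CPM by gene length, and COL6A1 at 96.1 FPKM in Hs578T, and at 0.0128 and 21.3 FPKM in MDA-MB-231.

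The chains of collagen I, the main fibrillar collagen of connective tissue, were of unequal level. COL1A1 had 4088, 3558 and 2638 CPM in Hs578T and 12.6, 9.24 and 7.45 CPM in MDA-MB-231 (log2 difference 8.45, SE 0.254, adjusted p = 2.4e-09). COL1A2 had 103, 105 and 71.3 CPM in Hs578T and a single count in MDA-MB-231, a 3318-fold ratio with an exact 95% counting interval of 595 to 131077. Hs578T replicate 3 was the lowest Hs578T library for both chains. Per length, COL1A1 in Hs578T stood at 349 FPKM and COL1A2 at 8.32 FPKM, although the protein holds both chains. COL3A1 was low in both lines, at 3.37 ± 0.661 CPM in Hs578T and 0.027 ± 0.0468 CPM in MDA-MB-231.

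MDA-MB-231 had a smaller collagen set of its own. COL8A1, a short-chain network collagen, had 3.68, 3.47 and 6.14 CPM in Hs578T and 220, 280 and 292 CPM in MDA-MB-231 (log2 difference -5.91, SE 0.216, adjusted p = 7.06e-09). The transmembrane collagen gene COL13A1 followed it, at 8.09 ± 1.34 CPM against 149.8 ± 10.5 CPM (log2 difference -4.21). COL17A1, a transmembrane collagen of hemidesmosomes, and COL12A1, COL9A2 and COL18A1 were higher in MDA-MB-231, at log2 differences from -3.22 to -1.40.

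Fibronectin and its relatives were higher in Hs578T. FN1 had 4740, 5252 and 3846 CPM in Hs578T and 216, 288 and 319 CPM in MDA-MB-231, the largest difference in mean CPM of any called gene higher in Hs578T (log2 difference 4.07, SE 0.176, adjusted p = 2.09e-08). SPARC, a collagen-binding matricellular protein, had 1379, 1097 and 815 CPM in Hs578T and under 1 CPM in every MDA-MB-231 library (log2 difference 11.05). TGFBI, a matrix protein induced by TGF-beta, stood at 1277 CPM and 5.45 CPM on average (log2 difference 7.87). Of 29 tested matrix glycoproteins, 19 were higher in Hs578T, 5 were higher in MDA-MB-231 and 5 were not called (median 2.00). Of 8 tested secreted proteoglycans, 6 were higher in Hs578T. BGN, which encodes biglycan, had 86.8, 76 and 64 CPM there and 2 counts in all of MDA-MB-231, a 1354-fold ratio (exact 95% counting interval 374 to 11183). Serglycin (SRGN) was the exception, at a log2 difference of -2.34.

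The laminins, the trimeric proteins of basement membranes, were divided between the lines. LAMA3 and LAMB3, chains of epithelial laminins, were higher in MDA-MB-231, at log2 differences of -5.29 (adjusted p = 4.56e-07) and -2.53 (adjusted p = 2.76e-06). LAMA3 had 1.18, 0.661 and 0.256 CPM in Hs578T and 23.2, 37.8 and 25.4 CPM in MDA-MB-231. The widely used chains LAMB1 and LAMC1 were higher in Hs578T by 2.59 and 1.42, and LAMB1 had 556, 624 and 665 CPM there against 98.2, 101 and 107 CPM. ITGB4, the integrin chain of hemidesmosomes, was higher in MDA-MB-231 (25.3 against 1.63 CPM on average, log2 difference -3.94). Over the laminin list 3 of 10 tested genes were higher in Hs578T and 4 were higher in the other line.

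Of the matrix-degrading enzymes, MMP1, the interstitial collagenase, had the lowest fitted log2 difference of the genes named by rule. Its level was 1393, 1420 and 1392 CPM in MDA-MB-231, and it had 0.208, 0 and 0.0853 CPM in Hs578T (log2 difference -13.58, SE 0.246, adjusted p = 3.19e-10). The stromelysin gene MMP3 was on the same side, at 8.21 ± 0.98 CPM in MDA-MB-231 and 2 counts in Hs578T. MMP2, a gelatinase, was on the other side, with 67.3, 69.7 and 98.1 CPM in Hs578T and no count in MDA-MB-231, which made it at least 915-fold higher in Hs578T. MMP14, the membrane protease that activates pro-MMP2, overlapped between the lines (242 ± 12.5 and 277 ± 28.4 CPM, adjusted p = 0.122). Without MDA-MB-231 replicate 1, MMP14 was called at a log2 difference of -0.28 (adjusted p = 0.00816).

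In the plasminogen system, 6 of 9 tested genes were higher in MDA-MB-231 and 1 in Hs578T. The activator PLAT had 45.4, 46.7 and 37.5 CPM in Hs578T and 145, 234 and 230 CPM in MDA-MB-231 (log2 difference -2.23, adjusted p = 2.06e-06). The urokinase receptor PLAUR differed by -1.42 (adjusted p = 7.39e-07) and urokinase itself, PLAU, by -0.74 (adjusted p = 0.00166), a call lost without Hs578T replicate 3 (adjusted p = 0.0102) or MDA-MB-231 replicate 3 (adjusted p = 0.0113). TIMP3, a matrix-bound inhibitor of metalloproteinases, was higher in MDA-MB-231 (628 ± 47.6 against 66.9 ± 6.42 CPM, log2 difference -3.23).

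**Figure D2:**
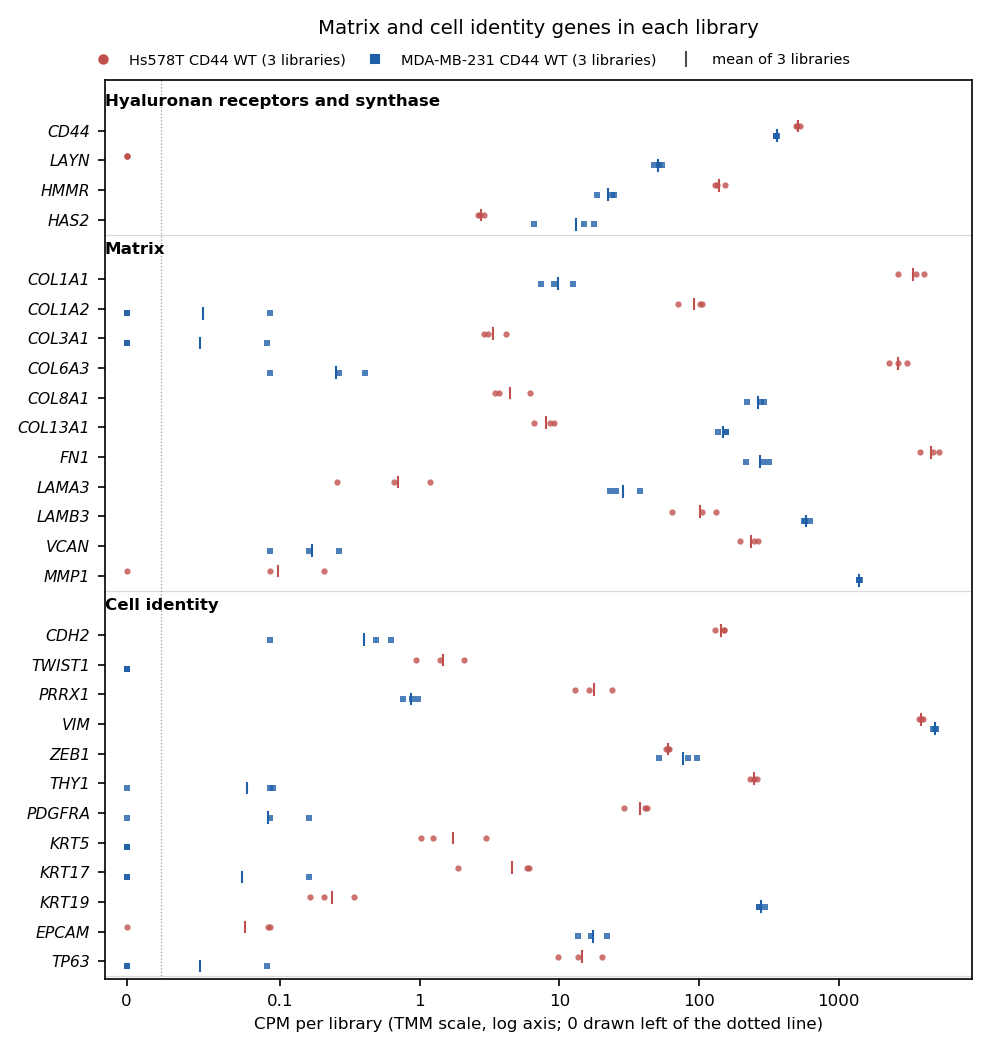
CPM of genes for hyaluronan, matrix and cell identity in each of the 6 CD44 WT libraries (log axis, 0 drawn left of the dotted line), with Hs578T as red circles, MDA-MB-231 as blue squares and the mean of 3 libraries as a bar. CD44, VIM and ZEB1 lie close together in both lines, while COL6A3, CDH2 and THY1 on one side and MMP1, KRT19 and EPCAM on the other are at or near 0 in one of them.

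Both lines were checked against markers of their tissue. E-cadherin (CDH1) was at or below 1 CPM in every library and was not tested in either direction, with 26 counts over the Hs578T libraries and 11 over the MDA-MB-231 libraries. PGR had no count in any library, and ESR1 had 29 counts in Hs578T and 1 in MDA-MB-231. ERBB2 did not differ beyond the spread of its libraries (79.0 ± 3.13 and 75.5 ± 11.3 CPM, adjusted p = 0.663). The keratin genes of simple epithelia, KRT8 and KRT18, remained expressed in both, at 573 and 406 CPM in Hs578T and 374 and 627 CPM in MDA-MB-231. Leukocyte markers were near 0: 12 of 13 did not reach the level for testing, PTPRC had 14 and 10 counts per line, and SPI1 had none, while CSF1R was at 4.11 CPM in Hs578T and 0.45 CPM in MDA-MB-231.

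Mesenchymal markers were expressed in both lines but were for the most part higher in Hs578T. VIM, the intermediate filament of mesenchymal cells, had 3864, 3744 and 4021 CPM in Hs578T and 5005, 4708 and 4886 CPM in MDA-MB-231, a small difference toward MDA-MB-231 (log2 difference -0.33, SE 0.0867, adjusted p = 0.00652). The VIM call did not hold without any 1 library other than MDA-MB-231 replicate 1, with adjusted p of 0.0118 to 0.0303, nor with scaling by library size alone (0.0345). CDH2, which encodes N-cadherin, had 150, 151 and 129 CPM in Hs578T and under 1 CPM in every MDA-MB-231 library (log2 difference 8.47, SE 0.261, adjusted p = 2.57e-09). Of 9 tested mesenchymal markers, 6 were at least 2-fold higher in Hs578T and none was at least 2-fold higher in MDA-MB-231.

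Among the transcription factors known to drive epithelial-mesenchymal transition (EMT), 7 of 11 tested were higher in Hs578T and 2 were higher in the other line. ZEB1, the repressor of E-cadherin, overlapped between the lines (61.2, 59.5 and 57.8 CPM against 51.6, 83.8 and 96.1 CPM, adjusted p = 0.106). Without MDA-MB-231 replicate 1, the lowest library, ZEB1 was called toward MDA-MB-231 at -0.60 (adjusted p = 0.000111). PRRX1 had 13, 16.3 and 23.9 CPM in Hs578T and under 1 CPM in each MDA-MB-231 library (log2 difference 4.32, adjusted p = 6.06e-07). TWIST2 was at 10.7, 12.1 and 12 CPM in Hs578T with no count in MDA-MB-231, at least 136-fold higher. SNAI2 was higher in Hs578T by 1.37 (adjusted p = 4.08e-05), and SNAI1 was not called (adjusted p = 0.0244).

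Fibroblast markers set Hs578T apart further. Of 13 tested markers, 12 were at least 2-fold higher in Hs578T, with a median log2 difference of 6.46, or 5.89 when the 2 genes without a count in one line are held at their bound. THY1, a surface glycoprotein of fibroblasts, had 232, 249 and 259 CPM in Hs578T and 2 counts in MDA-MB-231, a 4349-fold ratio (exact 95% counting interval 1203 to 35912). PDGFRA and PDGFRB, the receptors for platelet-derived growth factor, had 37.6 ± 7.48 and 51.4 ± 3.78 CPM in Hs578T and 0.0822 ± 0.081 and 4.75 ± 0.609 CPM in MDA-MB-231. The collagen receptor DDR2 stood at 219 CPM on average in Hs578T and at 1.21 CPM in MDA-MB-231 (log2 difference 7.49). Not every defining fibroblast gene was expressed: DCN, FAP and POSTN did not reach the level for testing, and LUM had 3.19, 1.9 and 2.39 CPM in Hs578T. Of 11 tested contractile genes, 4 were higher in Hs578T, 2 were higher in MDA-MB-231 and 5 were not called, with ACTA2 at 0.959 and 2.14 CPM (adjusted p = 0.0596) and TAGLN higher in MDA-MB-231 (log2 difference -1.38, adjusted p = 0.001).

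Epithelial surface and junction genes were divided. Desmosome genes, claudins and gap junction genes were mostly higher in MDA-MB-231, while other tight junction genes and keratins were more often higher in Hs578T. Of 5 tested gap junction genes, 4 were higher in MDA-MB-231 and 1 was higher in Hs578T (median log2 difference -3.33). Of 8 tested genes of tight junctions other than claudins, 4 were higher in Hs578T, 2 were higher in MDA-MB-231 and 2 were not called (median log2 difference 0.71). Of 14 tested keratins, 6 were higher in Hs578T, 3 were higher in MDA-MB-231 and 5 were not called (median log2 difference 0.52). KRT19, a keratin of simple epithelia, had 299, 267 and 269 CPM in MDA-MB-231 and under 1 CPM in every Hs578T library (log2 difference -10.15, SE 0.192, adjusted p = 3.19e-10). EPCAM, the epithelial adhesion molecule, had 21.9, 16.9 and 13.7 CPM in MDA-MB-231 and 2 counts in Hs578T, a 336-fold ratio (exact 95% counting interval 92.6 to 2779). The groups were fully separated for both. Of 9 tested desmosome genes 7 were higher in MDA-MB-231, among them DSG2, a desmosomal cadherin, with 5.69, 3.63 and 1.28 CPM in Hs578T and 122, 226 and 255 CPM in MDA-MB-231 (log2 difference -5.79, adjusted p = 7.16e-07). PKP2, a plaque protein of desmosomes, differed by -6.10 (adjusted p = 4.65e-08). Of 5 tested claudins 4 were higher in MDA-MB-231 and none in Hs578T, with CLDN7 at 2.62 and 21.2 CPM (log2 difference -3.01) and CLDN4 at 11.2 and 35.9 CPM (log2 difference -1.68), while CLDN3 did not reach the level for testing.

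Basal epithelial genes other than keratins did not favor Hs578T as a list. Of 5 tested, 1 was higher there, 3 were higher in MDA-MB-231, EGFR among them, and 1 was not called (median log2 difference -1.61). The 1 gene of this list higher in Hs578T was TP63, the transcription factor of basal epithelium. It had 20.4, 13.7 and 9.72 CPM in Hs578T and 1 count in MDA-MB-231, a 532-fold ratio (exact 95% counting interval 95 to 21035). The basal keratins KRT17 and KRT5, which are outside this list, were low but were also called toward Hs578T. KRT17 was separated (4.61 against 0.054 CPM, log2 difference 6.13, adjusted p = 6.21e-05). KRT5 averaged 1.75 CPM in Hs578T with no count in MDA-MB-231 (adjusted p = 0.000475). CD24, a surface protein whose low level beside CD44 is used to mark stem-like breast cancer cells, had 178, 125 and 105 CPM in Hs578T and 3.13, 3.32 and 3.02 CPM in MDA-MB-231 (log2 difference 5.43, adjusted p = 1.73e-08). CD24 has near-identical copies in the genome, and fragments that map to several places were not counted, so its level is uncertain.

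Most tested genes of the EGF family were higher in MDA-MB-231, among them several ligands and the receptor gene EGFR, which was well expressed in both lines. Of 10 tested members 6 were at least 2-fold higher in MDA-MB-231 and 2 in Hs578T (median log2 difference -2.33). EREG, which encodes epiregulin, had 31.4, 55.3 and 50.1 CPM in MDA-MB-231 and no count in Hs578T, at least 582-fold higher. AREG, which encodes amphiregulin, had 17.2, 15.8 and 16.7 CPM and no count, at least 211-fold higher. TGFA, HBEGF and NRG1 were higher in MDA-MB-231, at log2 differences of -6.08, -3.05 and -3.09. EGFR, the receptor for all of these but NRG1, had 177, 176 and 169 CPM in Hs578T and 389, 521 and 684 CPM in MDA-MB-231 (log2 difference -1.61, SE 0.173, adjusted p = 1.52e-05). ERBB3 overlapped between the lines.

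Genes that the MAPK cascade induces, and that in part act back on it, were higher in MDA-MB-231 as a list. Of 21 tested feedback targets, 14 were higher in MDA-MB-231, 13 of them by at least 2-fold, 1 was higher in Hs578T and 6 were not called (median -2.14). The cascade's own genes did not share this: of 16 tested, 6 were higher in Hs578T, 3 in MDA-MB-231 and 7 were not called (median 0.13). DUSP6, a phosphatase that inactivates ERK, had 20.9, 29 and 22.2 CPM in Hs578T and 251, 312 and 318 CPM in MDA-MB-231 (log2 difference -3.61, SE 0.156, adjusted p = 2.09e-08). DUSP4 and DUSP5, which encode nuclear phosphatases of the same family, differed by -3.31 and -3.01. FOSL1, an AP-1 subunit that ERK stabilizes, had 11.9, 12.6 and 13.8 CPM in Hs578T and 413, 342 and 314 CPM in MDA-MB-231 (log2 difference -4.80, SE 0.143, adjusted p = 2.33e-09).

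Further members of that list were on the same side. CCND1, which encodes cyclin D1, had 62.6, 58.9 and 62.2 CPM in Hs578T and 513, 659 and 650 CPM in MDA-MB-231 (log2 difference -3.31). MYC had 33, 37.3 and 36 CPM and 328, 316 and 376 CPM (log2 difference -3.26). The Sprouty genes SPRY2 and SPRY4, inhibitors of receptor signaling, differed by -2.14 and -1.69. Exceptions were DUSP2, higher in Hs578T by 3.40, and the immediate early gene EGR1, which overlapped between the lines (7.7, 27.2 and 17.4 CPM against 15.7, 23.3 and 20.1 CPM, adjusted p = 0.664). Among the cascade's genes, BRAF was higher in Hs578T by 0.74, and NF1, which encodes the RAS inhibitor neurofibromin, had 163, 145 and 154 CPM in Hs578T and 29.1, 36.9 and 45.1 CPM in MDA-MB-231 (log2 difference 2.06, SE 0.152, adjusted p = 9.27e-07).

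Targets of the Hippo pathway, through which YAP1 and WWTR1 (TAZ) act with TEAD factors, were also higher in MDA-MB-231. Of 15 tested effectors and targets, 10 were higher in MDA-MB-231, 8 of them by at least 2-fold, and 2 were higher in Hs578T (median -1.04). CCN2 (CTGF) had 6.94, 7.18 and 6.05 CPM in Hs578T and 508, 483 and 548 CPM in MDA-MB-231 (log2 difference -6.25, SE 0.128, adjusted p = 3.31e-10). CCN1 (CYR61) had 63, 50.5 and 33.9 CPM and 1016, 1064 and 954 CPM (log2 difference -4.36). ANKRD1 had 1.73, 0.908 and 0.426 CPM and 583, 487 and 540 CPM (log2 difference -8.96). For each of these genes the lowest MDA-MB-231 library stood far above the highest Hs578T library. The effectors themselves differed little: YAP1 by -0.76 (adjusted p = 0.00274) and WWTR1 by 0.77 in the other direction (adjusted p = 0.00349), while TEAD1 overlapped (262 ± 5.24 and 296 ± 93.9 CPM) and was called toward MDA-MB-231 only without replicate 1 of that line (adjusted p = 0.00031). The YAP1 call was lost without any 1 Hs578T library (adjusted p 0.0112 to 0.0168) or without MDA-MB-231 replicate 3 (adjusted p = 0.0171), and the WWTR1 call without any 1 Hs578T library (adjusted p 0.0117 to 0.0151).

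The promoter of CCN2 is shown because it is the most studied YAP1 and TEAD target of that list. The 250 bases before its start were taken from RefSeq (GRCh38.p14, chr6:131951373-131951622, minus strand), with matches to GGAATG, the TEAD motif searched on both strands, in capitals.
CCN2: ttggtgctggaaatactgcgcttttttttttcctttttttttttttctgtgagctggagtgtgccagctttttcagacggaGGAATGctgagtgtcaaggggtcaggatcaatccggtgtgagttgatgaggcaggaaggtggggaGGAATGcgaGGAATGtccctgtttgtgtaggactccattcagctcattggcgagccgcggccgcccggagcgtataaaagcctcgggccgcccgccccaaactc
The 3 matches began 169, 104 and 95 bases before the start. The motif was found in 9.40% of the 11021 promoters of tested genes, in 9.55% of those of genes at least 2-fold higher in Hs578T and in 9.76% of those at least 2-fold higher in MDA-MB-231, so that the letters were about as frequent in each set. A match describes the sequence and is no evidence of binding.

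**Figure D3:**
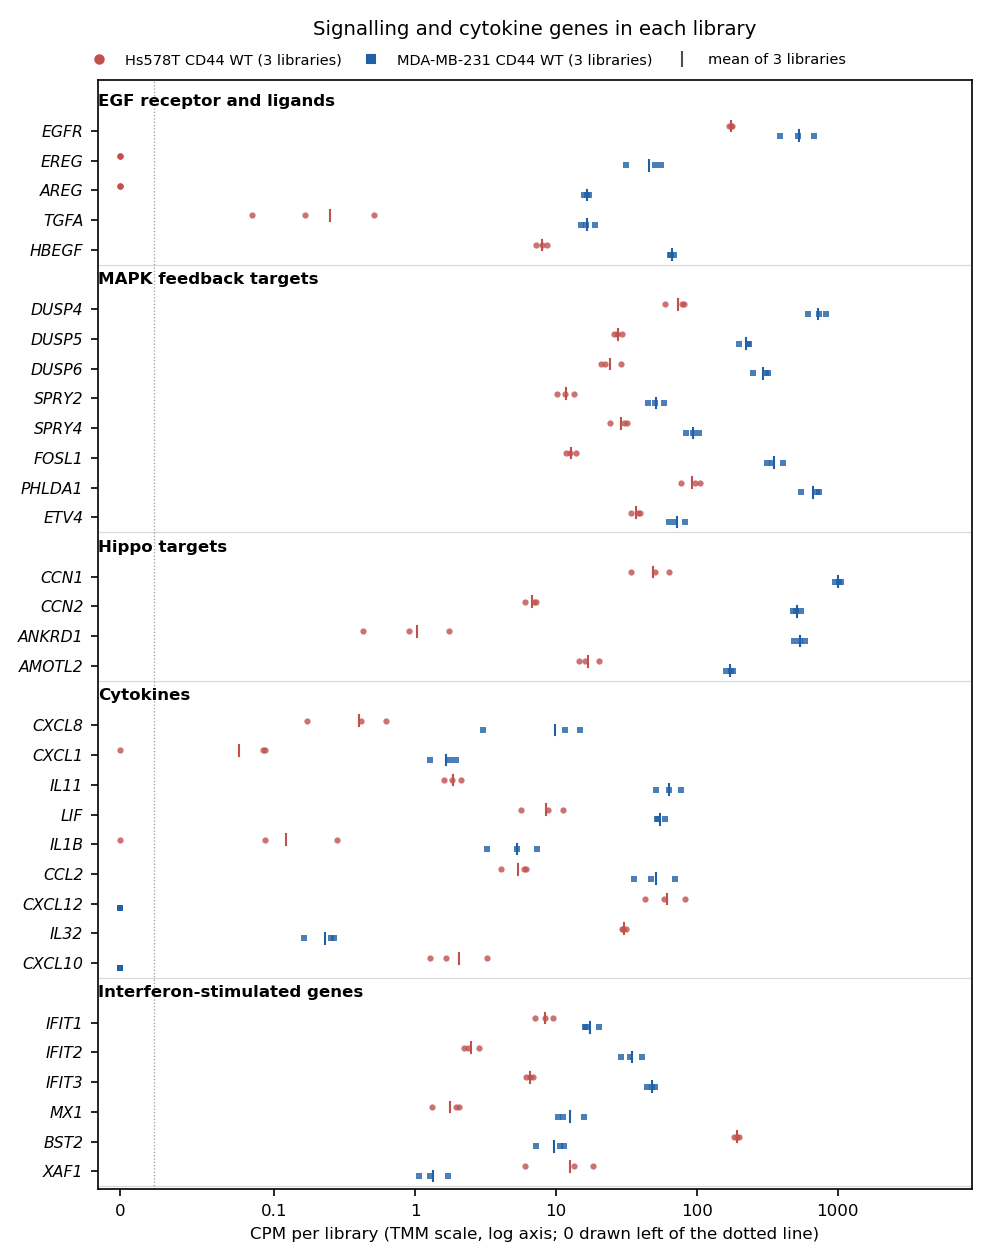
CPM of EGF family, MAPK feedback, Hippo, cytokine and interferon-stimulated genes in each of the 6 CD44 WT libraries (log axis, 0 drawn left of the dotted line), with Hs578T as red circles, MDA-MB-231 as blue squares and the mean of 3 libraries as a bar. MDA-MB-231 is to the right for the EGF ligands, the feedback targets and the Hippo targets, and Hs578T is to the right for CXCL12, IL32, BST2 and XAF1.

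Cytokine genes were low in level and differed in kind. Of 11 tested interleukins and related cytokines, 7 were at least 2-fold higher in MDA-MB-231 and 1 in Hs578T (median -2.67). IL11 had 1.6, 1.82 and 2.13 CPM in Hs578T and 51.5, 77.1 and 63.2 CPM in MDA-MB-231 (log2 difference -5.12, SE 0.21, adjusted p = 1.48e-08). LIF, another cytokine that signals through gp130, had 11.2, 8.75 and 5.63 CPM and 53.2, 59.2 and 52 CPM (log2 difference -2.67). IL18 and IL1B, cytokines of the IL-1 family, differed by -7.65 and -5.25. IL6 was near 1 CPM in both lines and overlapped (0.92 ± 0.285 and 1.03 ± 0.668 CPM, adjusted p = 0.794). IL32 was the gene on the other side, with 30, 31.6 and 29.4 CPM in Hs578T and under 1 CPM in MDA-MB-231 (log2 difference 7.01).

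The chemokines were divided. CXCL8, which attracts neutrophils, had 0.624, 0.413 and 0.171 CPM in Hs578T and 3.05, 11.6 and 14.9 CPM in MDA-MB-231 (log2 difference -4.53, SE 0.642, adjusted p = 0.00011). The groups did not overlap, but replicate 1 of MDA-MB-231 was several times below the other MDA-MB-231 libraries. CCL2, which attracts monocytes, had 6.17, 5.95 and 4.09 CPM in Hs578T and 70, 47.6 and 35.8 CPM in MDA-MB-231 (log2 difference -3.23, SE 0.262, adjusted p = 1.82e-06). CXCL12, the ligand of CXCR4, was on the other side, with 82.9, 58.5 and 42.8 CPM in Hs578T and no count in MDA-MB-231, at least 743-fold higher. CCL5 had no count in any library. Over the chemokine list 4 of 11 tested genes were higher in Hs578T and 5 were higher in the other line.

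The CXCL8 promoter is given because CXCL8 is a classical target of AP-1 and NF-kappaB and an AP-1 subunit, FOSL1, differed strongly between the lines. RefSeq places the 250 bases before its start at chr4:73740319-73740568 (GRCh38.p14, plus strand). The single match to TGANTCA, the palindromic AP-1 motif, is in capitals and began 137 bases before the start.
CXCL8: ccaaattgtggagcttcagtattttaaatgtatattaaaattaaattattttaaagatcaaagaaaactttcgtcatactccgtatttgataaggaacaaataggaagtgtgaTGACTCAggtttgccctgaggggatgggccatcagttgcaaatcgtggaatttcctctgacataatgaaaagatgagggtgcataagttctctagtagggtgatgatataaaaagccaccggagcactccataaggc
The motif was found in 4.01% of the promoters of tested genes, in 5.33% of those at least 2-fold higher in Hs578T and in 5.35% of those at least 2-fold higher in MDA-MB-231. As for CCN2, a match is no evidence of binding. CCGGAA, the core of ETS family sites, was in 24.8% of all promoters and in fewer of the promoters of differing genes, at 18.3% for Hs578T and 16.5% for MDA-MB-231.

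Interferon-stimulated genes moved in both directions. Of 26 tested, 12 were at least 2-fold higher in MDA-MB-231 and 7 were higher in Hs578T, 3 of them by at least 2-fold, with a median log2 difference of -0.91. IFIT2, an antiviral RNA-binding protein, had 2.84, 2.23 and 2.39 CPM in Hs578T and 29, 41.1 and 33.6 CPM in MDA-MB-231 (log2 difference -3.78, SE 0.194, adjusted p = 6.75e-08). IFIT3, RIGI and MX1 were on the same side at -2.87, -2.97 and -2.81. BST2 (tetherin), which holds budding virus at the cell surface, had 199, 191 and 184 CPM in Hs578T and 10.7, 11.4 and 7.18 CPM in MDA-MB-231 (log2 difference 4.29, SE 0.163, adjusted p = 8.97e-09).

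In the TGF-beta superfamily, ligands and their targets favored Hs578T while receptors were split. Of 14 tested ligands, 8 were higher in Hs578T and 4 were higher in the other line. BMP7 had 44.5, 41.4 and 30.9 CPM in Hs578T and no count in MDA-MB-231, at least 465-fold higher. BMP2 and BMP4 were on the other side, BMP2 with 5.67, 6 and 7.18 CPM in MDA-MB-231 and no count in Hs578T (at least 79.9-fold higher in MDA-MB-231) and BMP4 at a log2 difference of -2.31. The inhibitors of differentiation that BMP signaling induces, ID1, ID2 and ID3, were all higher in Hs578T. ID3 had 123, 132 and 139 CPM in Hs578T and 4.82, 3.81 and 4.17 CPM in MDA-MB-231 (log2 difference 4.94, SE 0.138, adjusted p = 1.68e-09), and ID1 and ID2 differed by 2.96 and 4.96.

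TGFB1 was higher in Hs578T (280 ± 16.6 against 104 ± 5.89 CPM, log2 difference 1.43), and so was the type I receptor gene TGFBR1 (log2 difference 1.92). The type II receptor gene TGFBR2 was higher in MDA-MB-231, at 232, 361 and 390 CPM against 94.7, 103 and 89.3 CPM (log2 difference -1.78, adjusted p = 7.83e-06). FST, which encodes the activin and BMP antagonist follistatin, had 2.15, 0.991 and 1.11 CPM in Hs578T and 126, 126 and 128 CPM in MDA-MB-231 (log2 difference -6.44, SE 0.21, adjusted p = 3.58e-09). A similar contrast was seen for DKK1, the secreted WNT antagonist, with under 1 CPM in each Hs578T library and 314, 281 and 280 CPM in MDA-MB-231 (log2 difference -9.50, SE 0.183, adjusted p = 3.19e-10). The WNT antagonist genes DKK3 and RNF43 were on the other side, at 4.94 and 6.47. All 8 tested WNT ligands were called, 5 toward Hs578T, among them WNT5A (log2 difference 3.00), and 3 toward MDA-MB-231.

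Receptor tyrosine kinases other than the EGF family were evenly divided, with 8 of 18 tested genes higher in each line. AXL and MET were higher in MDA-MB-231, at log2 differences of -1.28 and -1.47, and AXL was at 680 ± 31.9 CPM there. Of 13 tested Eph receptors and ephrins, 8 were higher in Hs578T. EPHA2 was one of the 2 exceptions, with 69.4, 61.6 and 77.5 CPM in Hs578T and 604, 646 and 600 CPM in MDA-MB-231 (log2 difference -3.15, SE 0.114, adjusted p = 6.52e-09).

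The position-specifying HOX genes were more fully expressed in Hs578T. Of the 39 HOX genes counted, 28 were tested, 20 of these were at least 2-fold higher in Hs578T, 3 were at least 2-fold higher in MDA-MB-231 and 5 were not called. The median log2 difference was 4.20, or 3.98 with the 12 genes that had no count in one line held at their bound. HOXA10 had 10.7, 10.2 and 10.2 CPM in Hs578T and no count in MDA-MB-231, at least 123-fold higher, and HOXA9 had 16, 16.3 and 14 CPM and 1 count, a 549-fold ratio (exact 95% counting interval 98.2 to 21730). HOXD10 was at least 93.2-fold higher in Hs578T. The difference was not shared by the whole B cluster: HOXB9 had 49.5, 44.9 and 49.9 CPM in Hs578T and 64.2, 48.9 and 61 CPM in MDA-MB-231 and was not called (adjusted p = 0.0811), and HOXB3 and HOXB5 were higher in MDA-MB-231 at -2.23 and -2.68. HOXB5 was no longer called without Hs578T replicate 1 (adjusted p = 0.0106).

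Cancer-testis antigens, which in adults are expressed mainly in germ cells and are silenced by DNA methylation elsewhere, were divided by family. Of 67 genes of the MAGE, GAGE, CT45, XAGE, PAGE and SSX families counted, 28 were tested, and 23 of these were at least 2-fold higher in Hs578T and 1 was at least 2-fold higher in the other line. The median log2 difference of 7.997 became 5.33 with the 13 genes without a count in one line at their bound. MAGEC1 had 174, 157 and 146 CPM in Hs578T and no count in MDA-MB-231, at least 1894-fold higher. MAGEA1 had 86.6, 73.2 and 69.5 CPM and PAGE1 had 71.8, 67.3 and 61.1 CPM, each with no count in MDA-MB-231 (at least 910-fold and at least 793-fold higher). MAGEA3 and MAGEA6 were expressed in both lines and were not called. Of 8 tested cancer-testis genes outside these families, 3 were higher in Hs578T, 4 were higher in MDA-MB-231 and 1 was not called (median log2 difference -1.07). Among those higher in MDA-MB-231 was SPANXB1, a sperm protein gene, with 1.18, 0.908 and 1.45 CPM in Hs578T and 288, 205 and 203 CPM in MDA-MB-231 (log2 difference -7.61, adjusted p = 2.33e-09). Members of these families are near-identical copies, and since fragments mapping to several places were not counted, levels of single members are uncertain.

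The promoter of MAGEC1, which had the highest level among the family members without a count in MDA-MB-231, is shown with its CpG dinucleotides, the sites of DNA methylation, in capitals (RefSeq, GRCh38.p14, chrX:141903644-141903893, plus strand).
MAGEC1: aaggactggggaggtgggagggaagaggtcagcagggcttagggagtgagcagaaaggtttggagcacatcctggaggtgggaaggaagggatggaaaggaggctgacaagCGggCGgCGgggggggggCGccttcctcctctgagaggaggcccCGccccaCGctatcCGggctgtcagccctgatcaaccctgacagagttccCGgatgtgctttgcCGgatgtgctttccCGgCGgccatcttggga
The 250 bases held 11 CpG dinucleotides, all within 139 bases of the start, where the median promoter of a tested gene held 21 and the 5th to 95th percentiles were 3 and 38. No methylation was measured in the study's libraries.

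A locus on chromosome 9 that encodes a tumor suppressor and its neighbor had no count in MDA-MB-231. CDKN2A, the gene of the cell cycle inhibitor p16, had 2.91, 5.04 and 2.73 CPM in Hs578T and no count in MDA-MB-231, at least 41.7-fold higher. MTAP, a ubiquitous enzyme of methionine salvage encoded next to CDKN2A, had 25.2, 26.9 and 27.9 CPM in Hs578T and no count in MDA-MB-231, at least 314-fold higher. In the CD44 KO libraries of MDA-MB-231 both genes also had no count. CDKN1A, which encodes p21, was expressed in both lines and was higher in Hs578T by 0.69 (adjusted p = 0.000293).

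Genes of mitosis and replication mostly differed by less than 2-fold. Of 15 tested genes of mitosis, 4 were higher in MDA-MB-231, none of them by 2-fold, 11 were not called and none was higher in Hs578T (median -0.02). MKI67, the usual marker of cycling cells, overlapped between the lines (430.1 ± 9.59 and 456 ± 40.8 CPM, adjusted p = 0.449), as did the replication licensing gene MCM2. CCNB1, which encodes cyclin B1, was among the higher genes of MDA-MB-231 at -0.94, and the polymerase clamp gene PCNA differed by -0.81. Of 18 replication genes 8 were higher in MDA-MB-231 and 2 in Hs578T. The share of replication genes called was 55.6%, near the 55.5% of all tested genes, and at 2-fold it was 16.7%, against 35.5% of all. Genes of G1 control were called more often, but not at 2-fold: of 14 tested, 5 were higher in Hs578T, 6 in MDA-MB-231 and 3 were not called. Their share called was 78.6%, against 55.5% of all tested genes. At 2-fold it was 35.7%, near the 35.5% of all.

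Transporters and enzymes of glucose and lactate differed in both directions. SLC16A1, the lactate importer and exporter MCT1, had 190, 191 and 199 CPM in Hs578T and 1.27, 1.05 and 2.04 CPM in MDA-MB-231 (log2 difference 7.06, SE 0.184, adjusted p = 1.07e-09). SLC16A3, the lactate exporter MCT4, was the mirror image, with 46.7, 47.1 and 33.6 CPM in Hs578T and 414, 384 and 464 CPM in MDA-MB-231 (log2 difference -3.31, SE 0.149, adjusted p = 2.79e-08). The glucose transporter gene SLC2A1 and the hexokinase gene HK2 were higher in MDA-MB-231, at log2 differences of -2.72 and -3.30. LDHA overlapped between the lines (2608 ± 179.9 and 3062 ± 569 CPM, adjusted p = 0.14). Of 26 tested glycolysis and lactate genes, 5 were higher in Hs578T, 10 in MDA-MB-231 and 11 were not called. The share called was 57.7%, near the 55.5% of all tested genes, and the share at 2-fold was 34.6%, near the 35.5% of all. As a list these genes therefore differed about as often as other genes.

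Single genes of lipid and serine synthesis showed further contrasts. Of 17 tested genes of sterol and fatty acid synthesis, 6 were higher in Hs578T, 2 in MDA-MB-231 and 9 were not called. The share called was 47.1%, below the 55.5% of all tested genes, while the share at 2-fold was 41.2%, above the 35.5% of all. FADS2, a desaturase of polyunsaturated fatty acids, had 23.2, 26.9 and 37.9 CPM in Hs578T and 610, 707 and 651 CPM in MDA-MB-231 (log2 difference -4.49, SE 0.18, adjusted p = 1.3e-08). SCD, the desaturase that makes oleate, had 4375, 4692 and 4467 CPM in Hs578T and 1332, 1708 and 1771 CPM in MDA-MB-231 (log2 difference 1.49), and the cholesterol synthesis genes SQLE and HMGCS1 were also higher in Hs578T, by 2.30 and 1.66. PHGDH, the entry enzyme of serine synthesis, had 538, 573 and 469 CPM in Hs578T and 107, 78.9 and 87.1 CPM in MDA-MB-231 (log2 difference 2.53, SE 0.135, adjusted p = 8.67e-08). GPX3, the secreted glutathione peroxidase, had 54, 47.9 and 42.1 CPM in MDA-MB-231 and 1 count in Hs578T, a 1840-fold ratio (exact 95% counting interval 330 to 72709).

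Some genes were counted in one line alone. In all, 67 genes had at least 20 CPM in Hs578T and no count in MDA-MB-231, and 27 genes had the reverse. Ranked by fitted log2 difference among genes of at least 20 CPM, the 12 leading genes of Hs578T were TUBA3C, MAGEC1, NCAM1, NEFL, the non-coding LINC01287 and CCDC144NL-AS1, IGFBP5, COL6A3, FGD5, LINC01029, NETO2 and PRSS21. NCAM1, a neural adhesion molecule, had 150, 158 and 146 CPM in Hs578T and no count in MDA-MB-231, at least 1788-fold higher. NEFL, a neuronal intermediate filament, had 101, 127 and 184 CPM and no count, at least 1589-fold higher. IGFBP5, a secreted binder of insulin-like growth factors, had 175, 141 and 45.5 CPM and no count, at least 1470-fold higher, with Hs578T replicate 3 well below the other Hs578T libraries. TUBA3C shares most of its sequence with other tubulin genes and its count is uncertain.

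The 12 leading genes of MDA-MB-231 were MMP1, the non-coding MANCR, RPP25, LAYN, EVI2B, THBD, LINC01088, CASC19, EREG, UCP2, PLEK2 and SFTA1P. THBD, which encodes the anticoagulant receptor thrombomodulin, had 40.2, 47.7 and 54.8 CPM in MDA-MB-231 and no count in Hs578T, at least 605-fold higher. UCP2, a mitochondrial carrier, had 45.5, 52.2 and 35.7 CPM and no count, at least 570-fold higher. EVI2B lies within an intron of NF1, and had 50.3, 46.7 and 47.4 CPM in MDA-MB-231, where NF1 was the lower of the lines, and no count in Hs578T (at least 614-fold higher). Counting used strand, so that reads of the host gene and of the gene within it could be told apart only where they lie on opposite strands.

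By absolute level the leading differences were of another kind. The 6 called genes with the most CPM in excess in Hs578T were FN1, COL1A1, SCD, COL6A3, DHRS2 and EEF2. DHRS2, a short-chain dehydrogenase, had 2333, 2561 and 2807 CPM in Hs578T and 2.12, 1.3 and 2.31 CPM in MDA-MB-231 (log2 difference 10.40, SE 0.197, adjusted p = 3.19e-10), and the elongation factor gene EEF2 differed by 1.14. Those in excess in MDA-MB-231 were EEF1A1, HSPA8, HMGA1, ANXA2, MMP1 and HSP90AA1. HMGA1, an architectural chromatin protein, had 377, 428 and 467 CPM in Hs578T and 2711, 2279 and 2257 CPM in MDA-MB-231 (log2 difference -2.51, SE 0.12, adjusted p = 4.15e-08). The chaperone gene HSP90AA1 was called at a log2 difference of -0.68 (adjusted p = 0.00293), but lost its call without Hs578T replicate 1 (adjusted p = 0.0133), without Hs578T replicate 2 (adjusted p = 0.0189) or without the unnumbered MDA-MB-231 library (adjusted p = 0.0108), and its Hs578T libraries ranged from 1899 to 3001 CPM. EEF1A1 has many processed copies in the genome, and its count is uncertain.

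Differences were not spread evenly along the genome. By chromosome, the median log2 difference was highest on chromosome 7 (0.46, with 44.2% of its tested genes higher in Hs578T) and lowest on chromosome 14 (-0.37, with 41.6% higher in MDA-MB-231). Running medians over 100 consecutive tested genes ranged from -0.98 to 0.88, with 5th and 95th percentiles of -0.53 and 0.57. The highest window lay on chromosome 6 (chr6:75237675-109443919, GRCh38), where 63 of 100 genes were higher in Hs578T and 9 were higher in the other line. The lowest lay on chromosome 12 (chr12:71839707-103965708), where 6 were higher in Hs578T and 62 were higher in the other line, among them PHLDA1 and DUSP6 of the MAPK feedback list.

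The next windows were on chromosomes 8 and 2 toward Hs578T, with medians of 0.81 and 0.80, and on chromosomes 14 and 6 toward MDA-MB-231, with medians of -0.93 and -0.74. The chromosome 14 window held BMP4 and SIX4, and 72 of its 100 genes were higher in MDA-MB-231. The CD44 KO libraries, which shared no sample with the comparison, gave medians over the genes of the 6 windows of 0.86, 0.66, 0.38, -0.92, -0.74 and -0.78, first for the windows on chromosomes 6, 8 and 2 toward Hs578T and then for those on chromosomes 12, 14 and 6 toward MDA-MB-231, and so kept the sign of each. The copy number of these regions was not measured in the libraries.

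**Figure D4:**
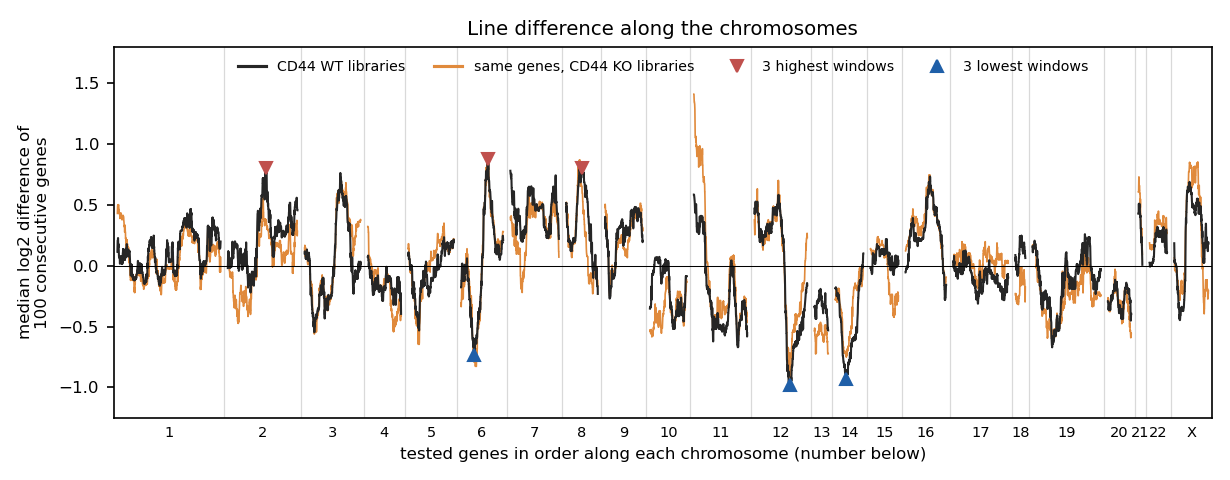
Median log2 difference (Hs578T minus MDA-MB-231) of 100 consecutive tested genes, by gene order along chromosomes 1 to 22 and X, in the CD44 WT libraries (black) and for the same genes in the CD44 KO libraries (orange). Triangles mark the 3 highest and 3 lowest windows that do not overlap, at medians of 0.88, 0.81 and 0.80 and of -0.98, -0.93 and -0.74.

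The same contrast was then taken in the CD44 KO libraries, which come from the same lines after editing, over all genes. Of 15119 genes tested there, 10487 were called (69.4%). Of the 8072 genes called between the CD44 WT lines and tested in both, 7924 had the same sign in the CD44 KO lines, 7325 were also called with that sign and 43 were called with the opposite sign. Among the 5020 genes that differed by at least 2-fold, 4956 had the same sign and 29 were called with the opposite sign. Over the 14654 genes tested in both, the Spearman correlation of the log2 differences was 0.914, as a description across genes, which are not independent replicates.

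Several of the genes with the largest differences kept them. COL6A3 differed by 13.31 in the CD44 WT cells and by 11.92 in the CD44 KO cells. MMP1 differed by -13.58 and -13.08, KRT19 by -10.15 and -10.13, and CCN2 by -6.25 and -6.15. The junction genes DSG2 and PKP2 differed further, at -5.79 and -6.10 in the CD44 WT cells and at -10.23 and -13.07 in the CD44 KO cells, where PKP2 had no count in Hs578T. TP63 did not reach the level for testing in the CD44 KO lines, where it averaged 0.831 CPM in Hs578T.

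In some genes, picked here after their values were seen, the difference was smaller or turned. HAS2, at a log2 difference of -2.25 among the CD44 WT cells, differed by 0.11 between the CD44 KO lines (adjusted p = 0.575), whose means were 20.1 CPM in Hs578T and 18.5 CPM in MDA-MB-231. CCL2 differed by -3.23 in the CD44 WT cells and by -0.93 in the CD44 KO cells, where its means were 1.84 and 3.65 CPM and it was still called with the same sign (adjusted p = 0.00655). CLDN1, a tight junction protein, turned: it had 1.11, 0.413 and 0.426 CPM in Hs578T and 13.2, 12.1 and 12.6 CPM in MDA-MB-231 in the CD44 WT cells (log2 difference -4.21), and means of 11.3 and 2.77 CPM in the CD44 KO cells (log2 difference 2.00). The test of the difference between the contrasts, an interaction term fitted over all 12 libraries, gave an adjusted p of 0.00182 for HAS2, 0.00269 for CCL2 and 6.96e-07 for CLDN1.

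**Figure D5:**
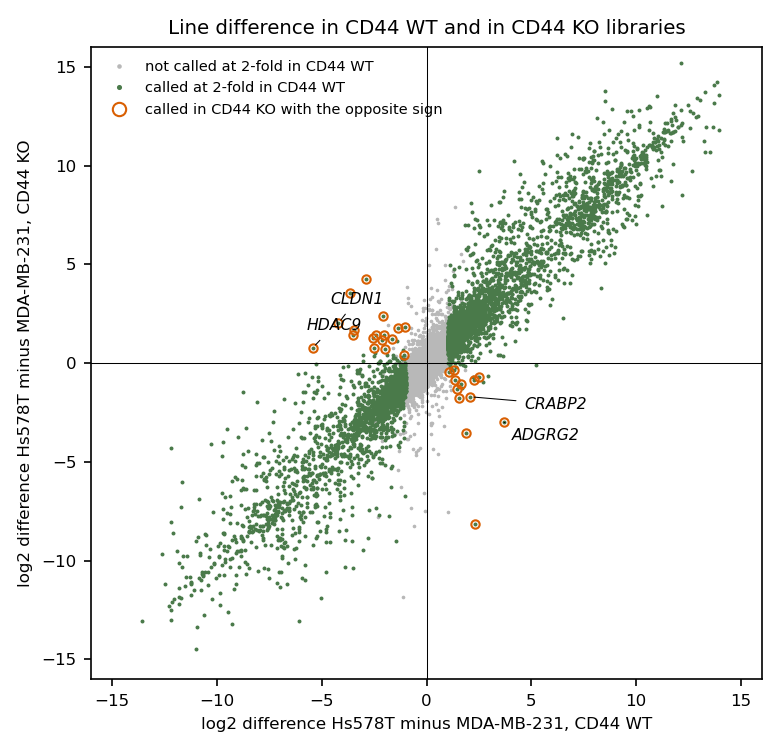
Log2 difference between the lines (Hs578T minus MDA-MB-231) in the CD44 WT libraries (x axis) and in the CD44 KO libraries (y axis), 1 point a gene, with genes called at 2-fold between the CD44 WT lines in green. Most green points lie in the quadrants of equal sign, and the 29 orange rings mark genes called in both with opposite signs.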

How the data were processed

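Polyadenylated RNA of triplicate samples had been made into stranded libraries and sequenced in pairs of 50 bp on 1 lane by the authors, who aligned with HISAT2 2.1.0 to GRCh38 and counted with featureCounts 1.6.2 (GENCODE 28, strand used, mapping quality of at least 10). The deposited values are raw counts per gene and library, 58381 genes in all, with totals of 11328102 to 13954052 in the 6 CD44 WT libraries. Samples were grouped by their GEO labels. The members and gene lists were chosen with earlier results of these data known.

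Genes above 1 CPM in at least 2 of the 6 libraries and of at least 300 nt were kept, which reads the study's length filter as removing shorter genes. Counts were scaled by TMM and tested by the quasi-likelihood test of edgeR 4.0.16 (R 4.3.3) with Benjamini-Hochberg adjustment. The genes named were the 12 highest and 12 lowest log2 differences among called genes of at least 20 CPM whose lines did not overlap, the 6 highest and 6 lowest differences in mean CPM, list members, CD44, and members in the 3 highest and 3 lowest chromosome windows. Y-linked and mitochondrial genes and XIST were left out. Genes outside this rule are said to be so. Ratios for genes without a count take 3 counts over the group as the floor, and those with 1 to 3 counts carry an exact 95% interval that covers counting error only. CD44 KO libraries were fitted separately, and the interaction was fitted over all 12. The scripts were tested on simulated data. Alternatives included DESeq2 1.42.0, other scaling and filters, a replicate block and leaving out each library. Promoters were matched by symbol in RefSeq for 11021 of 14463 symbols (76.2%). A few list members are not reported here by name.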

Additional observations from a re-analysis of the deposited data

Results flagged for a closer look

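The difference between the lines was not the same before and after CD44 editing for a small share of genes. By an interaction term over all 12 libraries (edgeR's quasi-likelihood test), 653 of 15836 genes had an adjusted p of 0.01 or less (4.12%), and 30 of the 198 named genes did, CD44 included and 12 of them named because they did. Each value below is the log2 difference in the CD44 WT lines minus that in the CD44 KO lines, and each passed that test, which is what singled it out.

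There were 29 genes called at 2-fold between the CD44 WT lines and called with the opposite sign between the CD44 KO lines. All 29 passed the interaction test. It used the same libraries that picked them, so their passing was nearly given and adds no support. Of these genes, 12 are a member of a gene list or reach 20 CPM. Toward MDA-MB-231 in the CD44 WT cells were HDAC9, a class II histone deacetylase (-6.20), CLDN1, a claudin of tight junctions (-6.21), PLEKHA7, a protein of adherens junctions (-3.16), COBLL1 (-3.46), GALNT3, which starts O-glycosylation (-1.49), and the sperm protein gene SPANXD (-7.22). Toward Hs578T in the CD44 WT cells were ADGRG2, an adhesion receptor (6.69), CRABP2, a carrier of retinoic acid (3.77), NES, the intermediate filament nestin (2.75), CPA4, a carboxypeptidase (2.70), SEMA6B, a semaphorin (1.70), and TPST1, which sulfates tyrosines (1.51).

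In other named genes the size of the difference changed. For genes of matrix and proteolysis the value was 1.65 for COL8A1, 2.01 for COL12A1, 2.18 for TGFBI, 1.52 for PLAT and -1.12 for TIMP3. For genes of adhesion and surface it was 6.89 for PKP2, 4.44 for DSG2, 1.30 for CLDN4 and 2.15 for CD24. For signaling genes it was -1.35 for DUSP6, -0.95 for NRG1, -0.93 for ID3, -2.31 for CCL2, 2.20 for BST2 and -2.36 for HAS2. It was -2.23 for MAGEA3, whose copies are near-identical, and -7.96 for LINC01088. LINC01088 had no count in the CD44 WT libraries of Hs578T, and PKP2 had none in the CD44 KO libraries of Hs578T. The size of both values therefore depends on how the fit treats a count of 0.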

How the results depend on the processing

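The count of called genes stayed within 1.5 times of 8459 under other scaling, filters, thresholds and tools, at 8162 to 10452, apart from the settings named next. Among the 83 genes under 300 nt, which the length filter removed, 25 were called, 14 higher in Hs578T and 11 in MDA-MB-231, and 21 were called at 2-fold, 14 and 7 by line. A test against a 2-fold difference, a stricter hypothesis by construction, called 3754 genes, 2152 of them toward Hs578T and 1602 toward MDA-MB-231. Without 1 library at a time the count ran from 6859 to 9146, and at 2-fold from 5006 to 5386. Scaling by library size alone moved the median log2 difference of all genes from 0.04 to 0.15 and the share of calls higher in Hs578T from 52.7% to 58.6%, and the medians of the 3 lowest chromosome windows to -0.87, -0.83 and -0.63. Of 198 named genes tested, 180 were called, 153 were called with the same sign in every alternative run and none was reversed. Without a filter on low counts ACTA2 was also called. The side with more members turned in some alternative for 8 of 73 gene groups, among them the TGF-beta family receptors and the hyaluronan synthases. The cause was not tested. Replicate numbers did not pair the libraries: deviations of same-numbered libraries correlated at -0.002, -0.068 and -0.049. With the replicate block 8162 genes were called, 5408 at 2-fold, and VIM alone of the named genes lost its call. The unnumbered MDA-MB-231 library, whose column name matched more than 1 sample description, was taken as number 2 for that block only. Each line stands for 1 tumor, so the spread between libraries does not cover variation between tumors of a kind.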

Other observations

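Counts for some of the gene groups not described above were as follows. Of 11 tested S100 genes, 6 were higher in Hs578T and 2 in MDA-MB-231, and of 10 annexins 3 and 5. Of 12 tested genes of amino acid supply and stress response, 5 were higher in Hs578T, none in MDA-MB-231 and 7 were not called. The share called was 41.7%, below the 55.5% of all tested genes. Every call was at least 2-fold, and at that size 41.7% was above the 35.5% of all. Of 18 integrin chains 8 were higher in Hs578T and 5 in MDA-MB-231, among them ITGA11, a collagen-binding chain with a mean of 46 CPM in Hs578T and no count in MDA-MB-231. Of 14 NF-kappaB factors and targets 2 were higher in Hs578T and 8 in MDA-MB-231.

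HRAS did not reach the level for testing, as it was under 1 CPM in 5 of the 6 libraries, but Hs578T replicate 2 held 17.3 CPM. MIF and TAP1 had no count in any library, so a count of 0 in this table need not mean that a gene was silent. The window of 100 genes whose median differed most between the CD44 WT and the CD44 KO lines lay on chromosome 11 (chr11:167784-8977527, GRCh38), where 98 genes tested in both had a median of 0.59 in the CD44 WT cells and 1.41 in the CD44 KO cells. These genes were looked up after their values were seen.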
